A study of Mus musculus with 6 samples.

Results

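The nuclear-encoded subunits of respiratory complexes I, III and IV were examined in whole brains of mouse embryos. The members were the genes of the count table whose symbols begin with Ndufa, Ndufb, Ndufc, Ndufs, Ndufv, Uqcr or Cox4 to Cox8, without the 3 symbols marked as pseudogenes by "-ps". They numbered 72 of the 53801 genes of the table. By role, 36 are subunits of complex I, 8 of complex III and 20 of complex IV, among which Ndufa4 and its relative Ndufa4l2 were counted. The remaining 8, Ndufaf1 to Ndufaf8, share the name stem but are assembly factors that help to build complex I and are not part of the finished enzyme. One gene, Cox8c, had 1 count in all embryos together and was not tested, which left 71.

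Polyadenylated RNA was sequenced from whole brains of C57BL/6 embryos at stage E16.5, from 3 Bahd1-KO embryos (the knockouts, genotype Bahd1-/-) and 3 Bahd1-WT embryos (wild type, Bahd1+/+). Bahd1 encodes a scaffold protein of repressive chromatin, and the knockout is constitutive, so that every cell of the Bahd1-KO embryo lacks the gene. Nothing in the labels ties the embryos to litters. Because whole brains were measured, fewer cells of a type and less RNA per cell cannot be told apart.

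Complex I takes electrons from NADH and hands them to ubiquinone, complex III passes them on to cytochrome c, and complex IV gives them to oxygen, each of the 3 pumping protons across the inner mitochondrial membrane. A few catalytic subunits are made inside the mitochondrion from its own genome, and all others are encoded in the nucleus and imported. Several complex IV subunits come in tissue forms, with one gene used in most tissues and another in heart and skeletal muscle, in lung, or in testis. Neurons depend heavily on this chain for the ATP that restores ion gradients.

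The libraries held 61724000 to 91782802 counts. Counts of Bahd1 itself were 2, 10 and 6 in the knockouts against 1971, 3102 and 3470 in wild type, which matches the labels. One library stood apart. In Bahd1-KO replicate 3, ribosomal RNA, mitochondrial RNA and untailed RNA together took 49.8% of the counts, against 3.12 to 6.28% in the other 5 embryos. The 7 lung markers fixed for this report summed in this embryo to 1474 CPM (counts scaled to a common library size, here always with TMM factors, which allow for libraries of different composition). They summed to 11.6 CPM in Bahd1-KO replicate 2 and to 0.36 to 0.55 CPM in the remaining embryos. One of them, Scgb1a1, was nearly as high in Bahd1-KO replicate 2 (6.05 CPM) as in Bahd1-KO replicate 3 (6.52 CPM). The 8 heart markers summed to 305.7 CPM against 29.9 to 46.9 CPM, and the 10 skeletal muscle markers to 114.2 CPM against 5.04 to 16.7 CPM. The 6 neuron markers were present in every embryo and summed to 2252 CPM in Bahd1-KO replicate 3 and to 5153 to 5975 CPM elsewhere, but they did not move as one. Tubb3, Stmn2 and Map2 were lowest in this embryo, Rbfox3 and Syt1 lay within the range of the others, and Snap25 was higher (909.8 CPM, against 153.5 to 285.4 CPM). None of these 4 marker lists had a gene without counts in Bahd1-KO replicate 3. Genotype results that turn on this embryo are also given without it.

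A first look at 3 small complex III subunits shows a pattern shared by many of these genes. Their coding sequences are printed below in lower case with every G and C in capitals, because the levels of the members followed this property. The 3 were chosen after their values were seen, as 2 GC-rich members and the GC-poorest of those with at least 50 counts in every embryo. Sequences were read from GENCODE M21 transcripts on GRCm38, on the strand of the gene and without the stop codon.

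Uqcr11: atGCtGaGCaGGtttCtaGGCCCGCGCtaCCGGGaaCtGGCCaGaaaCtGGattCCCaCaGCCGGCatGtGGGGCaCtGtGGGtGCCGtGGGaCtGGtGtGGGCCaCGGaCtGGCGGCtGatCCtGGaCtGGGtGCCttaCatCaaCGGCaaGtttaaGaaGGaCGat

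Uqcrq: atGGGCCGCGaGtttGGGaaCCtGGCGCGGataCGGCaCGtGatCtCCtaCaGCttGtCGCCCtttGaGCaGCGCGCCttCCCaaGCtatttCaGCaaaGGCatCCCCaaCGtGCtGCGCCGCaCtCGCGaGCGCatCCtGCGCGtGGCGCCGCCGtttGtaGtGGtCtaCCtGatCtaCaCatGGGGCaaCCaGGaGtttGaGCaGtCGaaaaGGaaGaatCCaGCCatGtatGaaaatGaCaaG

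Uqcrb: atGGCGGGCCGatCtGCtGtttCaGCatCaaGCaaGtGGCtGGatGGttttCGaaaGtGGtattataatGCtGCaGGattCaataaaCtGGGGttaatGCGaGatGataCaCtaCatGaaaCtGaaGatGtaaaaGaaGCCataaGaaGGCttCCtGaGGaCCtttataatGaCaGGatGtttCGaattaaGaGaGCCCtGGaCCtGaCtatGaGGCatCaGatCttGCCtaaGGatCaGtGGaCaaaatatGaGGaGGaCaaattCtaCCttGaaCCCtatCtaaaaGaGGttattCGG

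Uqcr11 (ENSMUSG00000020163, chr10:80402997-80406830, reverse strand) has a coding sequence of 168 bases, of which 102 are G or C (60.7%). Uqcrq (ENSMUSG00000044894, chr11:53427922-53430831, reverse strand), the subunit that sits beside cytochrome b, has 246 coding bases with 142 G or C (57.7%). Uqcrb (ENSMUSG00000021520, chr13:66900617-66905378, reverse strand), a ubiquinone-binding protein of the complex, has 333 coding bases, of which the first 300 are shown and hold 128 G or C, and its whole coding sequence is 42.9% GC.

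Uqcr11 stood at 2.14, 16.8 and 2.30 CPM in Bahd1-KO replicates 1, 2 and 3 and at 5.27, 17.6 and 19.8 CPM in Bahd1-WT replicates 1, 2 and 3. Uqcrq had 4.75, 20.3 and 3.41 CPM in the knockouts and 7.06, 25.6 and 22.1 CPM in wild type. For both genes, replicate 1 of each genotype and Bahd1-KO replicate 3 were low, the other 3 embryos were high, and the genotypes overlapped. The highest Bahd1-WT embryo exceeded the lowest 3.75-fold for Uqcr11 and 3.63-fold for Uqcrq. Uqcrb, in contrast, was at 40.2, 38.7 and 51.5 CPM in the knockouts and at 40.2, 26.8 and 32.7 CPM in wild type, so its replicates 1 were not low in either genotype. Subunits of one assembled complex thus had unequal profiles over the same 6 RNA samples.

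Levels in the wild-type brain were compared per kb of transcript, which makes genes of different length comparable, with 1 transcript taken for each gene. Complex III and IV subunits held the top of the order. Uqcrh, the hinge protein that helps cytochrome c to dock, had the highest level with 235.3 ± 44.0 CPM per kb (SD, n = 3), followed by Cox6b1, which joins complex IV monomers, with 217.0 ± 39.4, Ndufa4 with 176.4 ± 22.4 and Cox4i1, the widespread form of the largest nuclear-encoded complex IV subunit, with 164.7 ± 64.7. Uqcrh and Cox6b1 differed by less than either SD, and so did Ndufa4 and Cox4i1. In complex I the highest levels were those of Ndufa5 (123.3 ± 22.6 CPM per kb), Ndufv2, a core iron-sulfur subunit (109.1 ± 15.6), and Ndufv3 (87.6 ± 20.3).

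At the lower end of complex I stood Ndufb4 with 3.68 ± 0.23 CPM per kb, Ndufs5 with 6.54 ± 2.19 and Ndufab1, an acyl carrier protein, with 13.7 ± 2.21. Next came Ndufs7, a core iron-sulfur subunit that passes electrons to ubiquinone, with 14.8 ± 7.45, which differed from Ndufab1 by less than either SD. Complex I subunits ranged over 33.5-fold in wild type although all belong to one assembled complex. The widespread subunits of complex IV ranged over 9.83-fold, from Cox7c (22.1 ± 8.95 CPM per kb) to Cox6b1, and complex III subunits over 7.36-fold, from Uqcr11 (31.9 ± 17.6) to Uqcrh. Uqcr10 (37.2 ± 14.6), Uqcrfs1 (43.5 ± 7.35), Uqcrq (45.0 ± 24.3) and Uqcrc1 (45.7 ± 14.3) lay within 1 SD of Uqcr11. Next below Uqcrh came Uqcrc2, a core protein, with 91.7 ± 9.70 CPM per kb, and Uqcrb with 62.1 ± 12.6. The assembly factors were lower as a group, with a median of 10.6 CPM per kb against 41.8 for complex I subunits, and the lowest was Ndufaf8 with 1.61 ± 0.56. Reads from near-identical copies elsewhere in the genome can be lost in counting by position, so levels of single subunits carry this uncertainty.

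The order also depended on the transcript chosen. Ndufa5 was scaled to a transcript of 315 bases while all its exons cover 1032, and Ndufv3 to 493 of 3189. Per kb of all exon bases, a scale added after seeing the data, Ndufa5 stood at 37.6 and Ndufv3 at 13.5 CPM per kb, and the highest complex I subunit was Ndufa1 with 61.1 ± 16.0. Cox6b1 (189.4 ± 34.4) then exceeded Uqcrh (104.0 ± 19.5). Ndufb4 was the lowest complex I subunit on both scales, and the range within complex I was 32.7-fold on the second.

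**Figure D1:**
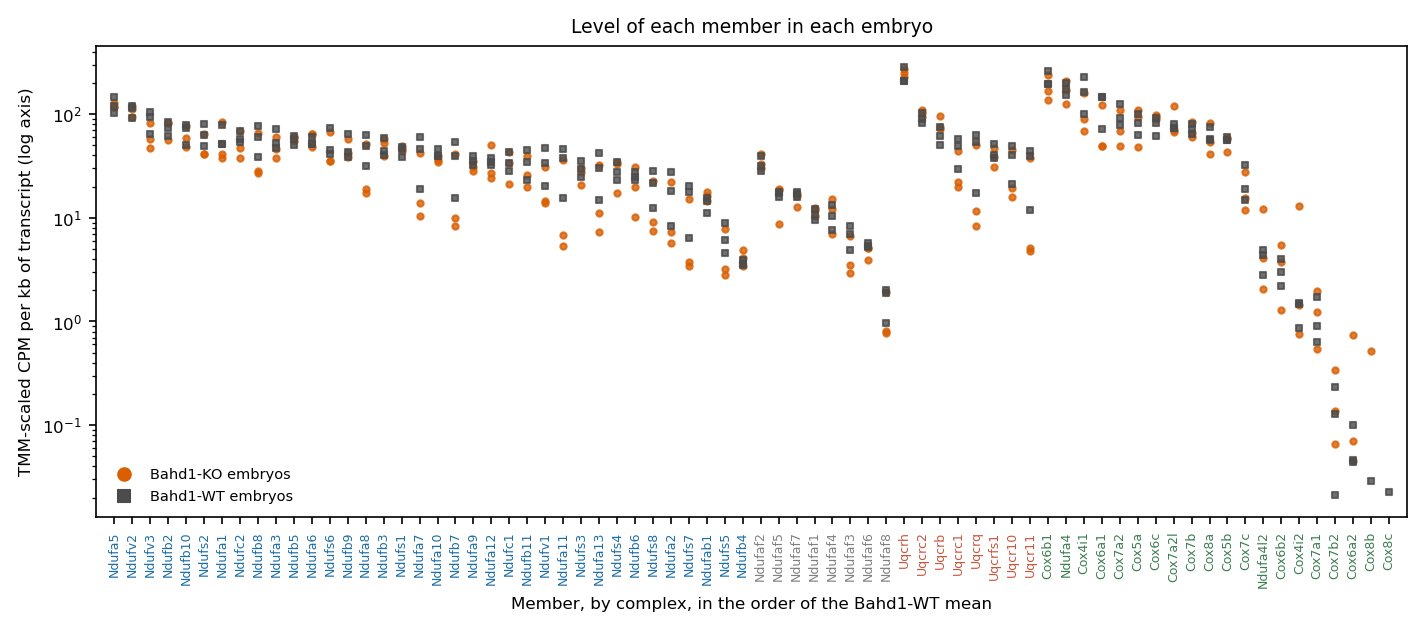
Level of each of the 72 members in each embryo, in TMM-scaled CPM per kb of transcript on a log axis. Circles are Bahd1-KO and squares Bahd1-WT embryos, values of 0 are not drawn, members are ordered by the Bahd1-WT mean within each complex, and label colours mark the complex. Uqcrh and Cox6b1 were highest, the 6 lowest Bahd1-WT means were those of tissue forms of complex IV, and Cox4i2, Ndufa4l2, Cox6a2 and Cox8b each had a single Bahd1-KO embryo far above the others.

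The genotype comparison asked whether loss of BAHD1 changed these genes before birth. No member passed the adjusted threshold of 0.05 in the quasi-likelihood test of edgeR, and none reached an unadjusted p under 0.05. Over all 24739 genes tested, the adjusted threshold was passed by 0.00404% of genes, which was Bahd1 alone, and the unadjusted one by 4.67%. DESeq2 also called no member, with 1 at an unadjusted p under 0.05. Over all 24739 genes it called 8, with 1266 at an unadjusted p under 0.05. Of the 71 members, 23 had a higher and 48 a lower value in the knockouts, and the median log2 fold change was -0.14, against 0.06 over all genes tested. A shift of every gene by another library scaling moved this split to 31 higher and 40 lower with upper-quartile factors and to 10 and 61 with total counts. The members' median thus lay -0.20 from that of all genes, a distance that a change of library scaling leaves nearly as it is but that moved with single embryos. It was -0.38 without Bahd1-KO replicate 2, -0.10 without Bahd1-KO replicate 3, -0.07 without Bahd1-WT replicate 3, and 0.04 with the replicate number as a block and Bahd1-KO replicate 3 left out. A correction for transcript length gave 39 higher and 32 lower. With it the median of all genes rose to 0.19, and the members' median still lay -0.17 from that.

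By complex, 7 of 36 complex I subunits were higher and 29 lower in the knockouts, with a median log2 fold change of -0.21. Among its 7 core subunits, which carry the flavin, the iron-sulfur clusters and the ubiquinone site, 6 were lower, and among the 29 accessory subunits 23 were lower. Complex III had 3 higher and 5 lower (median -0.31), the assembly factors 3 and 5 (median -0.14), and complex IV 10 and 9 (median 0.04). These counts are on the TMM scale and move with the scaling, as above, and no gene in them passed the test.

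Members with the lowest unadjusted p-values fell into 2 kinds. Leaving aside the tissue forms of complex IV described further on, they were subunits with lower values in the knockouts and 1 with a higher value. Ndufv1, the core subunit that binds NADH and the flavin, had 23.3, 51.8 and 24.0 CPM in the knockouts and 33.7, 56.2 and 78.4 CPM in wild type, a log2 fold change of -0.77 (SE 0.44, edgeR adjusted p = 0.696). Its Bahd1-KO replicates 1 and 3 lay under all Bahd1-WT embryos, and replicate 2 lay between them. Uqcrc1, the other core protein of complex III, had 32.5, 73.6 and 36.8 CPM in the knockouts and 49.2, 82.5 and 95.1 CPM in wild type, a log2 fold change of -0.67 (SE 0.41). Here too the groups overlapped through Bahd1-KO replicate 2.

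The same shape was seen in Cox4i1, with 51.4, 119.4 and 66.3 CPM in the knockouts and 75.4, 120.9 and 171.8 CPM in wild type (log2 fold change -0.63, SE 0.42), and in Cox6a1, the widespread form of a small regulatory subunit, with 28.1, 70.9 and 28.1 CPM in the knockouts and 40.9, 83.2 and 83.4 CPM in wild type (-0.71, SE 0.47). Ndufv3 was at -0.48 (SE 0.31) and the assembly factor Ndufaf3 at -0.63 (SE 0.42). Uqcrb had the opposite sign, at 0.39 (SE 0.26), with Bahd1-KO replicates 1 and 3 at or above the highest Bahd1-WT embryo and replicate 2 inside the Bahd1-WT range. In edgeR without Bahd1-KO replicate 3, the log2 fold changes were -0.58 for Ndufv1, -0.51 for Uqcrc1 and 0.23 for Uqcrb, each with an adjusted p = 0.981.

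Only Ndufaf6, an assembly factor, had values that did not overlap between the genotypes, with 5.51, 5.54 and 4.24 CPM in the knockouts and 6.21, 5.66 and 5.79 CPM in wild type. This is 1 of 71 members with all Bahd1-KO embryos lower, and 0 of 71 with all higher. Over all genes tested, the shares were 2.24% for lower and 4.47% for higher. Its log2 fold change was -0.21 (SE 0.30), and -0.10 without Bahd1-KO replicate 3.

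**Figure D2:**
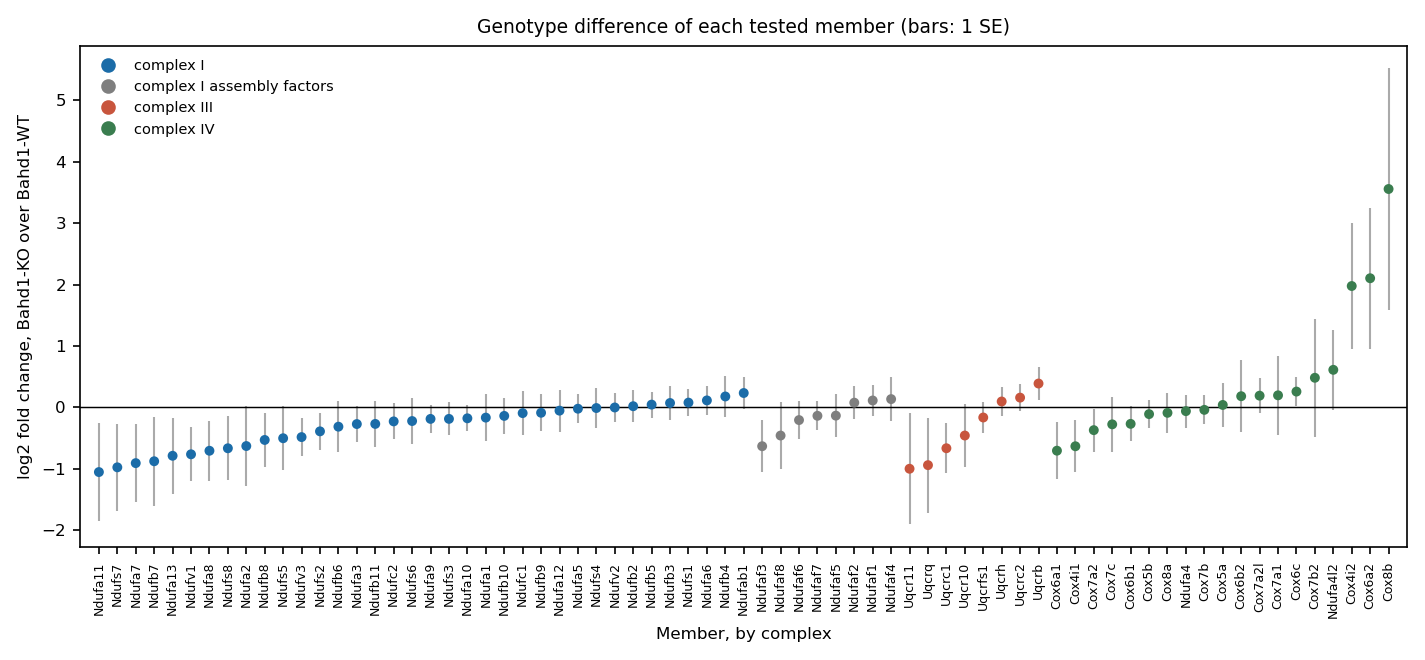
Log2 fold change of Bahd1-KO over Bahd1-WT from edgeR for each of the 71 tested members, grouped by complex, with bars of 1 SE. Most bars of complex I lie around or under 0 down to -1.05 for Ndufa11, and the largest positive values are those of the tissue forms Cox4i2, Cox6a2 and Cox8b, whose bars are also among the widest. No member passed the threshold.

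The wide bars of the subunits arose within the genotypes. For the 64 members with at least 50 counts in every embryo, the median SD of the log2 level was 0.48 among Bahd1-KO and 0.30 among Bahd1-WT embryos, and the median absolute difference of the genotype means was 0.24. In 53 of the 64 the genotype difference was smaller than the larger of both SDs. Bahd1-WT replicate 3 was the highest of the 6 embryos for 37 of the 64, and Bahd1-KO replicate 3 or 1 was the lowest for 28 and 25. These ranks are on the TMM scale and can move with the library scaling.

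A subset of the members was low in replicate 1 of both genotypes, whereas the replicates 3 were unlike each other. In Bahd1-WT replicate 1, 11 of the 64 members stood at 50% or less of the mean of Bahd1-WT replicates 2 and 3, and the lowest was Uqcr11 at a log2 ratio of -1.82. In Bahd1-KO replicate 1, 19 of the 64 stood at 50% or less of Bahd1-KO replicate 2, down to -2.98, again for Uqcr11. These are 17.2% and 29.7% of the members. Among all 12981 protein-coding genes with the same count minimum, the shares were 5.44% and 10.5%. The 11 genes that were at 50% or less in replicate 1 of Bahd1-WT were so in the knockouts too, and the list held 7 complex I subunits (Ndufa2, Ndufa7, Ndufa11, Ndufa13, Ndufb7, Ndufs7 and Ndufs8), 3 of complex III (Uqcr10, Uqcr11 and Uqcrq) and 1 of complex IV (Cox6a1). In Bahd1-KO replicate 3, all 11 were again at 50% or less of Bahd1-KO replicate 2, together with 13 of the other 53. That is 37.5% of the members, against 24.7% of all protein-coding genes in this embryo. Bahd1-KO replicate 2 is the reference of both knockout ratios. The 11 were low against it in Bahd1-KO replicate 1 already, so their low ratios in Bahd1-KO replicate 3 are no independent comparison. Ndufs7, one of the 11, had 2.63, 11.6 and 2.84 CPM in the knockouts and 4.80, 13.4 and 15.4 CPM in wild type. Ndufa11, an accessory subunit of the membrane arm, had 3.71, 19.6 and 2.91 CPM in the knockouts and 8.49, 20.6 and 25.4 CPM in wild type. The 6 blood markers were also low in both replicates 1, where they summed to 158.3 CPM in the Bahd1-KO and 131.6 CPM in the Bahd1-WT embryo, against 354.6 to 588.9 CPM in the other 4, and the part of blood in these levels was not tested.

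Across the 64 members, the log2 ratio of Bahd1-WT replicate 1 to its replicates 2 and 3 went with that of Bahd1-KO replicate 1 to Bahd1-KO replicate 2 (Spearman 0.94, Pearson 0.95). The 2 ratios share no embryo. Over the 12981 protein-coding genes with the same count minimum, Spearman was 0.80. These correlations are across genes, which are not independent replicates, and serve as descriptions. Between the ratio of Bahd1-WT replicate 1 and that of Bahd1-WT replicate 3 to replicate 2, Spearman was -0.13 among the members. Replicates 2 and 3 enter both of these ratios, so this value is no independent comparison.

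**Figure D3:**
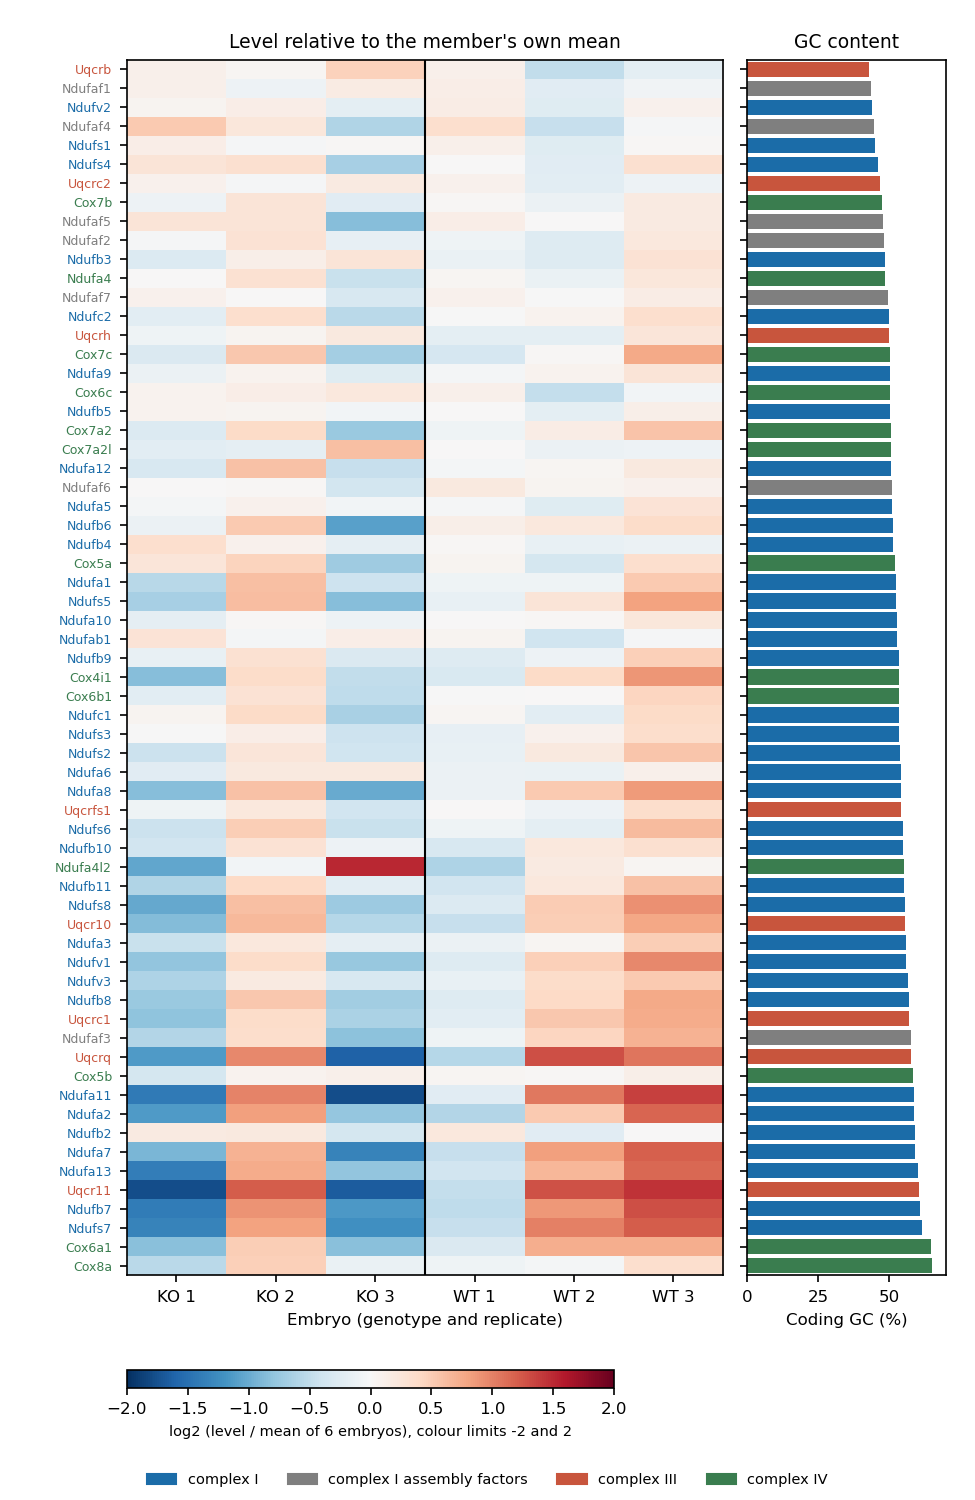
Log2 level of each of the 64 members with at least 50 counts in every embryo, relative to the mean over the 6 embryos (left, blue lower and red higher), with members ordered from the lowest to the highest coding GC content (right, in percent). Symbol and bar colours mark the complex. The lower rows are blue in both replicates 1 and in Bahd1-KO replicate 3 and red in the other embryos, whereas most of the upper rows are pale in every embryo, and Ndufa4l2 is dark red in Bahd1-KO replicate 3.

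The ratios followed the GC content of the coding sequence. Both knockout ratios have Bahd1-KO replicate 2 as their reference, so they are not independent of each other. Among the 64 members, Spearman's correlation with coding GC was -0.73 for Bahd1-WT replicate 1, -0.75 for Bahd1-KO replicate 1 and -0.53 for Bahd1-KO replicate 3. In all protein-coding genes it was -0.67, -0.72 and -0.32 in turn, so the relation also held outside these genes. It was not a steady fall. From 65 to 70% GC the median log2 ratio of all genes was -0.25 in Bahd1-WT replicate 1 and -0.40 in Bahd1-KO replicate 1. In the bin from 60 to 65% these were -0.68 and -0.83. Bahd1-KO replicate 3 stood at -0.91 and -1.04 in the same 2 bins. The length of the transcript was less related, with 0.29, 0.40 and 0.31 among the members. Median coding GC was 53.4% in the members and 52.8% in all protein-coding genes, while the members are short, with a median transcript of 718 bases against 2909.

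In steps of GC content, the 13 members under 50% kept a median of 103.1% of the level of the other Bahd1-WT embryos in Bahd1-WT replicate 1, and 99.9% of the level of Bahd1-KO replicate 2 in Bahd1-KO replicate 1. The 28 members from 50 to 55% stood at 87.4% and 76.8%, the 17 from 55 to 60% at 55.7% and 45.0%, and the 6 at 60% or more at 36.7% and 22.7%. In Bahd1-KO replicate 3 the same 4 steps gave 79.7%, 65.2%, 46.3% and 29.0% of Bahd1-KO replicate 2. Another library scaling would change these 4 values by a common factor. The members that did not follow it included Ndufb2, whose coding sequence is 59.0% GC and whose levels in wild type were 38.2, 28.3 and 33.4 CPM, and Cox5b with 58.4% GC and 49.1, 48.4 and 51.6 CPM.

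A correction of each library for transcript GC content, chosen after seeing the data, narrowed the spread. The median SD of the log2 level fell from 0.48 to 0.32 among Bahd1-KO and from 0.30 to 0.26 among Bahd1-WT embryos. The number of members at 50% or less in Bahd1-WT replicate 1 went from 11 to 4 and in Bahd1-KO replicate 1 from 19 to 8. After the correction these were 6.25% and 12.5% of the members, against 0.23% and 0.97% of all protein-coding genes. The members' ratios in both replicates 1 still went together (Spearman 0.88, and 0.43 over all protein-coding genes), so a part of the shared pattern was left. On this scale, edgeR called 0 members and 1 of 24739 genes. At an unadjusted p under 0.05 were 0 members and 1002 genes. Of the members, 31 were higher and 40 lower. The median of all genes was 0.12 on this scale, and the members' median lay -0.21 from it. What makes levels follow GC content in these libraries was not tested.

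**Figure D4:**
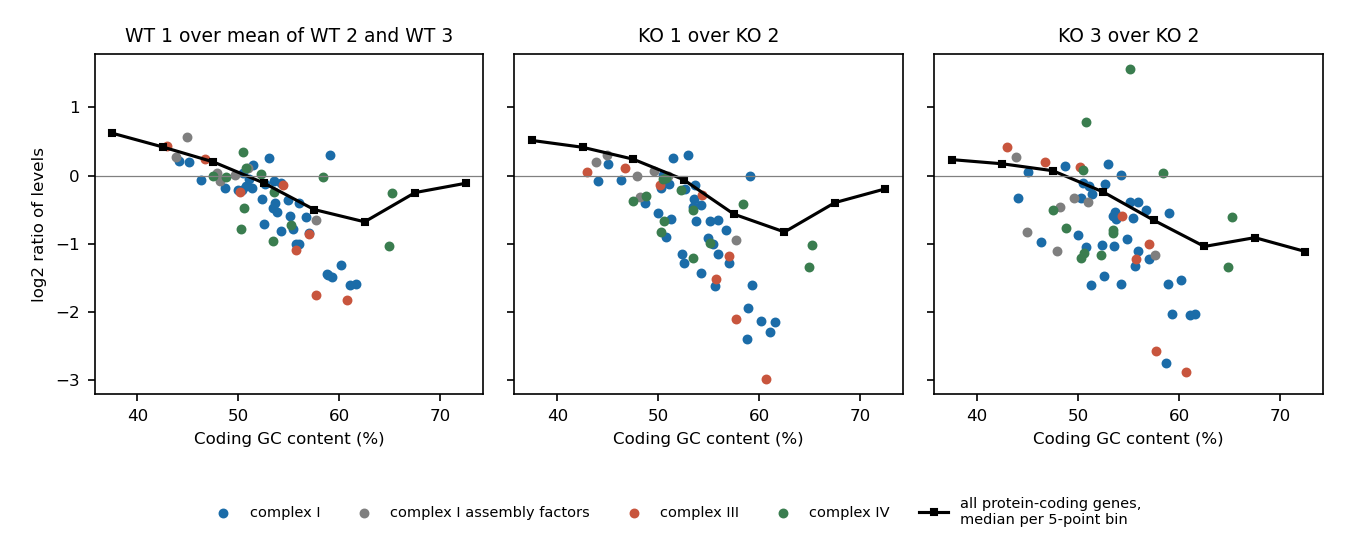
Log2 ratio of levels between embryos of one genotype against coding GC content in percent, for the 64 members (points, coloured by complex) and as medians of all protein-coding genes in bins of 5 percentage points (black squares and line). The panels show Bahd1-WT replicate 1 over the mean of replicates 2 and 3, Bahd1-KO replicate 1 over replicate 2, and Bahd1-KO replicate 3 over replicate 2. Members above 55% mostly fall under -0.5 in the first 2 panels, down to -1.82 and -2.98, and the line of all genes falls less far, to -0.68 and -0.83 in the bin from 60 to 65%. Above that bin the line turns back in these 2 panels, to -0.25 and -0.40 from 65 to 70%.

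The tissue forms of complex IV gave the largest positive values, and these rested on Bahd1-KO replicate 3. Cox4i2 (ENSMUSG00000009876, chr2:152754173-152765037), the form of subunit 4 known from lung and from oxygen-sensing cells, had 36, 89 and 509 counts in the knockouts and 60, 97 and 108 in wild type, or 0.55, 1.05 and 9.43 CPM against 0.63, 1.10 and 1.07 CPM. The third Bahd1-KO embryo was 8.58-fold above the highest of the others, which all lay within 0.55 to 1.10 CPM. Its log2 fold change of 1.98 (SE 1.03, edgeR adjusted p = 0.696) became -0.21 (SE 0.41) without Bahd1-KO replicate 3.

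Cox6a2 (ENSMUSG00000030785, chr7:128205435-128206387), the heart and muscle form of subunit 6A, had 2, 4 and 27 counts in the knockouts and 3, 6 and 3 in wild type. Its log2 fold change was 2.10 (SE 1.15) with all embryos and -0.10 (SE 0.73) without Bahd1-KO replicate 3. Cox8b, the heart and muscle form of subunit 8, had 0, 0 and 10 counts in the knockouts and 1, 0 and 0 in wild type, too few for a fold change. Ndufa4l2, a relative of Ndufa4 that is induced by low oxygen, had 1.94, 3.86 and 11.4 CPM in the knockouts and 2.60, 4.52 and 4.10 CPM in wild type, and its log2 fold change went from 0.61 (SE 0.65) to -0.37 (SE 0.40).

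Other tissue forms did not share this peak to the same degree. Cox7a1, the heart and muscle form of subunit 7A, had 14, 41 and 42 counts in the knockouts and 24, 31 and 69 in wild type, with the groups overlapping (log2 fold change 0.20, SE 0.65). The testis form Cox6b2 was detected in every brain, at 0.60, 1.74 and 2.52 CPM in the knockouts and 1.03, 1.38 and 1.86 CPM in wild type. The testis forms Cox7b2 (12, 3 and 4 counts against 12, 1 and 7) and Cox8c (0, 0 and 0 against 1, 0 and 0) were near or at 0. The 6 male germ cell markers had 0 or 1 count in every embryo. Cox7a2l, which takes part in joining complexes into supercomplexes, was also highest in Bahd1-KO replicate 3, at 73.3, 75.4 and 129.7 CPM in the knockouts against 85.8, 79.1 and 79.2 CPM in wild type (log2 fold change 0.19, SE 0.29, and -0.14 without this embryo).

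As shares of a pair, the tissue forms were small. Cox6a2 made up 0.64 ± 0.96% (SD, n = 3) of the counts of Cox6a2 and Cox6a1 in the knockouts and 0.065 ± 0.025% in wild type. In Bahd1-KO replicate 3 the share was 1.75% (95% Wilson interval 1.20 to 2.53%), and in the other 5 embryos 0.036 to 0.11%. Cox7a1 made up 1.15 ± 1.01% of its pair with Cox7a2 in the knockouts and 0.63 ± 0.18% in wild type, and Cox8b 0.20 ± 0.35% and 0.011 ± 0.020% of its pair with Cox8a. Exact two-sided permutation tests of these 3 shares over the 20 ways to split 6 embryos gave p = 0.30 for Cox6a2, 0.70 for Cox7a1 and 1.0 for Cox8b, and 0.90, 1.0 and 1.0 after adjustment over the 3 pairs. The smallest p that 3 against 3 embryos allow is 0.10. Intervals cover counting error only.

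In the pairs that were not tested, Cox4i2 took 12.5% (95% Wilson interval 11.5 to 13.5%) of its pair with Cox4i1 in Bahd1-KO replicate 3 and 0.62 to 1.06% in the other embryos, and Ndufa4l2 took 16.8% (15.6 to 18.0%) of its pair with Ndufa4 against 2.45 to 6.08%. The testis form Cox6b2 took 2.91% (2.46 to 3.43%) of its pair with Cox6b1 in this embryo, against 0.57 to 1.17%. The testis form Cox7b2 was within the range of the others, at 0.12% against 0.017 to 0.28%, and Cox8c had no count there. A share also moves with the widespread gene of the pair. In Bahd1-KO replicate 3, Cox4i1 stood at 66.3 CPM against 51.4 to 171.8 CPM in the others, and Cox6a1 and Cox8a also lay within the range of the others. Ndufa4 (56.3 against 69.9 to 95.4 CPM), Cox6b1 (84.1 against 103.2 to 162.2 CPM) and Cox7a2 (32.8 against 45.4 to 82.0 CPM) were lowest in this embryo. Cox7a1 and Cox6b2 themselves were only 1.14-fold and 1.35-fold above the highest other embryo. The paired forms are well apart in sequence, with 52.8 to 63.8% identical positions in aligned coding sequences of the 5 pairs that hold Cox6a2, Cox7a1, Cox8b, Cox4i2 and Ndufa4l2. The sums of the lung, heart and skeletal muscle marker lists given above were all highest in Bahd1-KO replicate 3. The sum of the 6 endothelium markers was also highest there (745.4 CPM, against 222.4 to 279 CPM), but they did not move as one. Cldn5 was at 9.25 CPM in this embryo, within the 8.09 to 33.1 CPM of the others, whereas the rest of the list was highest there. The 9 pericyte markers summed to 375.1 CPM there and to 317.9 to 352.4 CPM in the other embryos, and they did not move as one either. Higd1b (5.88 CPM, against 1.39 to 2.21 CPM), Pdgfrb, Abcc9 and Anpep were highest in Bahd1-KO replicate 3. Vtn was lowest there (8.90 CPM, against 19.6 to 45.9 CPM), and the rest of the list lay within the range of the others. The part of these other cell types in the levels of Cox4i2, Cox6a2, Cox8b and Ndufa4l2 was not tested.

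**Figure D5:**
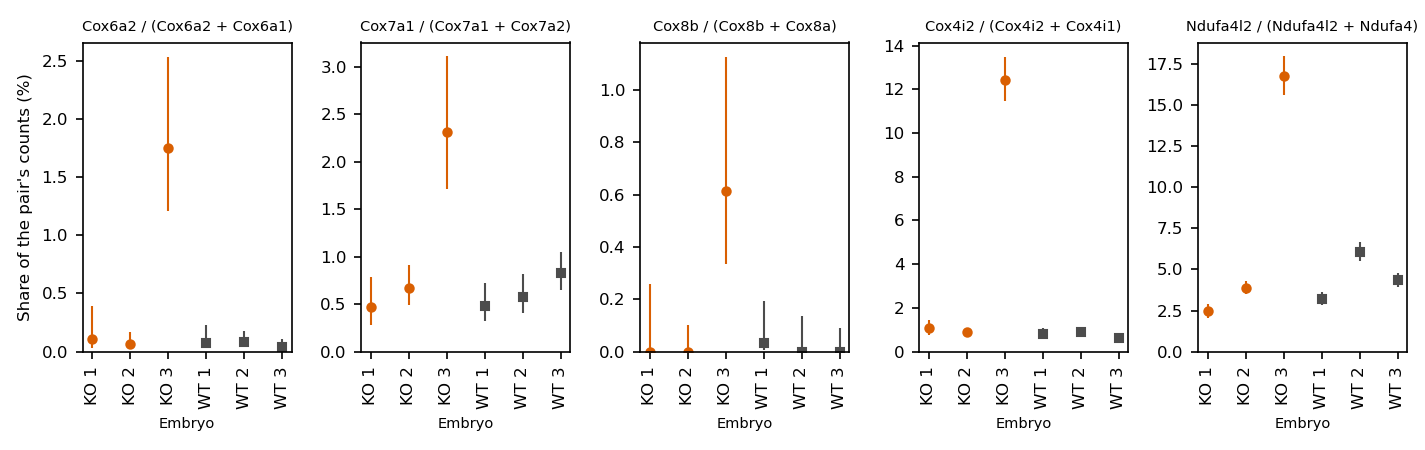
Share of each pair's counts taken by the tissue form, in percent, in each of the 6 embryos, for 5 pairs of complex IV genes. Circles are Bahd1-KO and squares Bahd1-WT embryos, bars are 95% Wilson intervals, every axis starts at 0, and the axes differ in height. In all 5 panels Bahd1-KO replicate 3 lies above the other 5 embryos, from 0.61% for Cox8b to 16.8% for Ndufa4l2, and for Cox7a1 the lower level of Cox7a2 in this embryo adds to the share.

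One gene left out by the naming rule belongs beside Uqcrh. Uqcrh-ps2, a processed pseudogene on the chromosome of Bahd1, had 161, 183 and 51 counts in the knockouts and 2, 1 and 7 in wild type (edgeR log2 fold change 5.70, SE 0.82, adjusted p = 0.696). The groups did not overlap, and the call turned on Bahd1-KO replicate 3 and on the test. Without that embryo edgeR gave a log2 fold change of 5.98 (SE 0.53, adjusted p = 0.029), and with all 6 embryos the adjusted p was 1.0e-09 by DESeq2 and 0.0019 by limma voom with embryo quality weights. Set against the counts of Uqcrh itself this was 0.63 to 1.97% in the knockouts and 0.0099 to 0.044% in wild type. Uqcrh had 124.5, 137.3 and 150.6 CPM in the knockouts and 114.8, 114.8 and 156.5 CPM in wild type, with overlapping groups and a log2 fold change of 0.10 (SE 0.24). Reads can be split between near-identical copies, so both values are uncertain.

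The other genes of the pathway were read from fixed lists, which held 88 genes of the table, of which 81 were tested. None passed the adjusted threshold in edgeR and none reached an unadjusted p under 0.05, with 31 higher and 50 lower in the knockouts. Complex II, which feeds electrons from succinate and is wholly nuclear-encoded, had 1 gene higher and 3 lower (median log2 fold change -0.27). The ATP synthase had 3 higher and 14 lower (-0.33), and of cytochrome c and cytochrome c1 all 3 genes were lower. These were Cyc1, the heme-bearing subunit of complex III, at -0.73 (SE 0.47), the somatic cytochrome c gene Cycs at -0.16 (SE 0.34), and the testis form Cyct, which had 4, 1 and 0 counts against 8, 2 and 1, too few for a fold change. Assembly factors of complexes III and IV had 9 higher and 16 lower (-0.14), and further assembly factors of complex I 2 and 4 (-0.19).

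The 13 regulators of mitochondrial biogenesis, which include the transcription factors that switch on respiratory genes, had 7 higher and 6 lower (0.03), and the 6 genes that stand for mitochondrial mass 2 and 4 (-0.18). The 7 tested genes of the 13 mitochondrially encoded subunits all had higher values in the knockouts (median 0.44). The remaining 6, among them mt-Co2 and mt-Co3 of complex IV, had 0 to 2 counts in each embryo and are not measured by this table. The sums of the 7 were 51081, 38786 and 59458 CPM in the knockouts and 56770, 30896 and 24574 CPM in wild type, so Bahd1-WT replicate 1 lay with the Bahd1-KO embryos. The nuclear-encoded members summed to 2307, 3099 and 2281 CPM in the knockouts and 2527, 2691 and 3378 CPM in wild type. The embryo with the highest nuclear sum, Bahd1-WT replicate 3, had the lowest mitochondrial sum.

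Promoters were scanned because the members serve shared complexes. Windows of 300 bases around the start site were taken from the RefSeq promoters of GRCm38.p6, with a match for 58 of the 72 members. The core of the NRF1 motif, CGCANGCG, was present on either strand in 17 of 58 members (29.3%), against 9.22% of the 27025 genes with a promoter window. The ETS core CCGGAAG was in 11 of 58 (19.0%, against 9.93%) and the YY1 core AAGATGG in 9 of 58 (15.5%, against 7.28%). NRF1, the ETS factor GABP and YY1 are textbook regulators of respiratory genes. A match of letters is a description and shows no binding.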

How the data were processed

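RNA-seq of 6 whole embryonic brains was analysed, with groups and replicate numbers taken from the sample titles. The authors deposited a table of raw read counts with 1 column for each embryo. By the methods of the study and its processing notes, reads from polyadenylated RNA were trimmed with cutadapt (version 1.11), aligned to GRCm38 with STAR (version 2.5.0a, while TopHat2 is also named in the methods) and counted over exons with featureCounts (version 1.4.6-p3) in its strand-specific mode. No column was left unused, and counts carried no normalization.

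Every gene reaching 10 counts over the 6 embryos entered a quasi-likelihood F-test in edgeR (version 4.0.16, R 4.3.3) with TMM scaling and genotype alone in the model, two-sided, and adjusted by Benjamini and Hochberg over all 24739 genes. DESeq2 (version 1.42.0), voom of limma (version 3.58.1), other filters and scalings, the replicate number as a block, corrections for transcript length and GC content, and each embryo left out in turn were alternatives. The corrections used lowess with a span of 0.3. The fit was tested on simulated data with known changes. Levels are CPM on the TMM-scaled library size. Ratios between embryos used members with at least 50 counts in every embryo. Pair shares were tested with exact permutation tests (SciPy 1.17.1, Python 3.11.15). Gene models, lengths and GC content came from GENCODE M21, with 1 coding transcript of middle length per gene, and all 72 members had a record. The p-values measure the spread between these embryos.

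The members, the gene lists and the tests were chosen with earlier results of these data known. Named were Bahd1, the tissue forms of complex IV and their counterparts, Cox7a2l, the 3 highest and 3 lowest members per kb of each complex, the 10 members with the lowest p and those whose groups did not overlap. Other names were chosen after their values were seen.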

Additional observations from a re-analysis of the deposited data

How the results depend on the processing

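No member was called in any of the 24 alternatives. The number of members at an unadjusted p under 0.05, 0 as reported, was 1 with DESeq2 (Cox4i2, higher), 13 with voom and embryo quality weights (all lower), 1 with the replicate block and transcript length correction, 11 with the replicate block once Bahd1-KO replicate 3 was dropped (8 lower), 1 with the replicate block and GC content correction, and 0 to 18 with 1 embryo left out. The 18 arose without Bahd1-KO replicate 2 (17 lower, with a lowest adjusted p of 0.235 among the named members), and the 2 without Bahd1-KO replicate 1 were Cox4i2 and Cox6a2, both higher. Over all genes tested, 2213 of 24739 were at an unadjusted p under 0.05 with voom, beside 13 of 71 members. With the replicate block once Bahd1-KO replicate 3 was dropped, they were 2171 of 23334 genes, beside 11 of 70 members. Without Bahd1-KO replicate 2 they were 4878 of 24149 genes, beside 18 of 71 members. The cause of these differences between settings was not tested. The median log2 fold change of -0.14 ran from -0.34 without Bahd1-KO replicate 2 to 0.02 with transcript length correction. Each alternative moved it by less than the SD between embryos of one genotype (0.33). That SD measures levels of single embryos and is larger than the median fold change itself, so it cannot show that the median is stable. Leaving out Bahd1-WT replicate 3 gave 35 members higher and 36 lower (median -0.03), against 23 and 48. With the replicate block alone the median was -0.17, with 0 members called. The replicate numbers did not pair all the embryos. Deviations from the genotype means correlated at 0.28, 0.37 and -0.13 over all genes for replicates 1, 2 and 3, and Bahd1-KO replicate 2 correlated best with Bahd1-WT replicate 3 (0.39). Among 67 members the values were 0.75, 0.65 and -0.40, and 0.82 for Bahd1-KO replicate 2 with Bahd1-WT replicate 3. Replicates 1 thus went together, and replicates 3 did not. Leaving out 1 embryo moved the pair share difference of Bahd1-KO minus Bahd1-WT from 0.023 to 0.86 percentage points for Cox6a2 (0.58 as reported), from -0.059 to 0.86 for Cox7a1 (0.52) and from -0.011 to 0.30 for Cox8b (0.19), with the lowest of each without Bahd1-KO replicate 3. Of 31 named members, 14 had the same sign in every alternative and 17 had another sign in at least 1, in 95 of 734 values, and none of the 734 was past the threshold. Among those 17, Cox4i2 ran from -0.31 to 2.78, Cox6a2 from -0.34 to 2.62, Ndufa4l2 from -0.56 to 1.53, Cox8a from -0.44 to 0.48 and Ndufv2 from -0.16 to 0.20. With 3 embryos per genotype and 1 library of other composition, the genotype differences of the 72 members did not stand out from the spread between embryos. Per kb of all exon bases in place of 1 transcript, the range of wild-type levels went from 9.83-fold to 18.0-fold in complex IV and from 20.6-fold to 7.33-fold in the assembly factors.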
